A study of Arabidopsis with 8 samples.

Results

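The transcripts described here are those of the numbered beta-glucosidase genes (BGLU) of Arabidopsis thaliana seedlings. Members were all genes that the deposited tables name BGLU followed by digits only, which gave 33 of the 25397 genes listed in at least 1 library. RefSeq also gives BGLU numbers to TGG1 to TGG5, which are not members under this rule, and to genes that no library lists. The tables come from seedlings that were 5 days old and were divided into root and shoot part. There were 2 libraries each from saur41/40/71/72 root, Col-0 root, saur41/40/71/72 shoot part and Col-0 shoot part, 8 libraries in all. Col-0 is the wild type, and saur41/40/71/72 is a quadruple mutant of SAUR41, SAUR40, SAUR71 and SAUR72, small auxin up RNA genes of the SAUR41 subfamily, called the mutant below. The labels give neither the alleles nor the number of seedlings per library, and do not say that replicates were grown apart, so p-values measure only the spread between these libraries, which may be technical.

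Beta-glucosidases of this family (glycoside hydrolase family 1) remove a terminal glucose from small molecules. Plants keep hormones, coumarins, lignin precursors and defence compounds as glucosides, and a beta-glucosidase that meets its glucoside releases the active part. In Brassicaceae, several members are packed into ER bodies, spindle-shaped compartments of the endoplasmic reticulum, and mix with their substrates when a cell is broken. A few members work in the other direction and add a sugar to flavonoids.

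Levels are in FPKM, fragments scaled for the length of the gene and for the size of the library, and can be compared between genes. A gene that a table leaves out was taken as 0 and is called not listed. Differences are of log2(FPKM + 1), which understates the change of low genes. They are given with the standard error (SE) and the Benjamini-Hochberg adjusted p of limma, fitted over 19985 genes, with a threshold of 0.05. Of the 33 members, 27 passed the filter for this fit, a mean of at least 1 FPKM over the 4 libraries of root or of shoot. A member that passed through 1 tissue only had a higher mean there by this rule, though not always a call. The counts between tissues below therefore describe and support nothing by themselves.

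The mutated genes gave a partial check of the labels. SAUR72 had 16.9 and 16.3 FPKM in mutant roots, against 23.4 and 31.6 FPKM in Col-0 roots, and 4.18 and 3.96 FPKM in mutant shoots, against 9.41 and 7.57 FPKM in Col-0 shoots. It was lower in every mutant library than in any Col-0 library of the tissue, but missed the threshold in limma (adjusted p = 1 in root and 0.0624 in shoot). SAUR71 was lower in both mutant shoots, with 3.28 and 3.02 FPKM, against 7.91 and 5.22 FPKM in Col-0 shoots, and overlapped between genotypes in root. SAUR41 overlapped between the genotypes in both tissues and SAUR40 stayed under 0.1 FPKM in every library, so neither checks the labels. The tissue labels fitted the markers: the summed level of 5 photosynthesis genes was 119 to 127 FPKM in the 4 root libraries and 36060 to 48100 FPKM in the shoot libraries, and that of 6 root genes was 162 to 190 FPKM in root and 1.59 to 4.34 FPKM in shoot.

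One shoot library stands apart. Col-0 shoot replicate 1 had the fewest genes listed (21355, against 21862 to 22858 in the others), and the median level of the tested genes was 7.21 and 7.39 FPKM in the mutant shoots, against 3.89 FPKM in this library and 6.06 FPKM in Col-0 shoot replicate 2. It does not list LHCB1.3, a light-harvesting gene at 15861 to 21258 FPKM in the other shoot libraries, so a gene not listed can be a failed estimate. Of the 33 members, 29 were lower in it than in Col-0 shoot replicate 2, as were 69.6% of all tested genes. The larger shoot changes of the members are therefore given with and without it. The summed levels, the single genes of the lists and the root minus shoot differences in Col-0 are given with it only. The number of reads is not given. Low genes, whose values step by single fragments, put the depth at 0.874 to 1.08 times that of Col-0 root replicate 1 among roots and at 0.886 to 1.22 times that of Col-0 shoot replicate 1 among shoots.

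BGLU23 outweighed the other members. This gene, also called PYK10, encodes the main protein of root ER bodies and hydrolyses the coumarin glucoside scopolin and indole glucosinolates; the tables place it at chr3:2839000-2843781 (TAIR10), a merged locus that also holds AT3G09250. It had 6164 and 5374 FPKM in mutant roots, 5922 and 5552 FPKM in Col-0 roots, 703 and 643 FPKM in mutant shoots and 594 and 649 FPKM in Col-0 shoots. In all 4 root libraries it was the highest of all genes, while in the shoot libraries it ranked 112 and 112 in the mutant and 134 and 113 in Col-0. It made up 86.6 to 88.5% of the summed BGLU level in root and 59.0 to 77.6% in shoot. The summed BGLU level was 6998 and 6205 FPKM in mutant roots, 6692 and 6283 FPKM in Col-0 roots, 1121 and 1090 FPKM in mutant shoots and 766 and 976 FPKM in Col-0 shoots. Without BGLU23 the sum was 834 and 832 FPKM in mutant roots, 770 and 731 FPKM in Col-0 roots, 418 and 447 FPKM in mutant shoots and 172 and 327 FPKM in Col-0 shoots. With or without BGLU23, both mutant shoots lay above both Col-0 shoots, and the root sums separated the genotypes only when BGLU23 was left out. The mean summed level of mutant shoots was 1.27 times that of Col-0 shoots as deposited, 0.92 times after median-ratio rescaling within the tissue and 0.887 times after rescaling over all libraries, so its direction depends on the scaling.

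**Figure D1:**
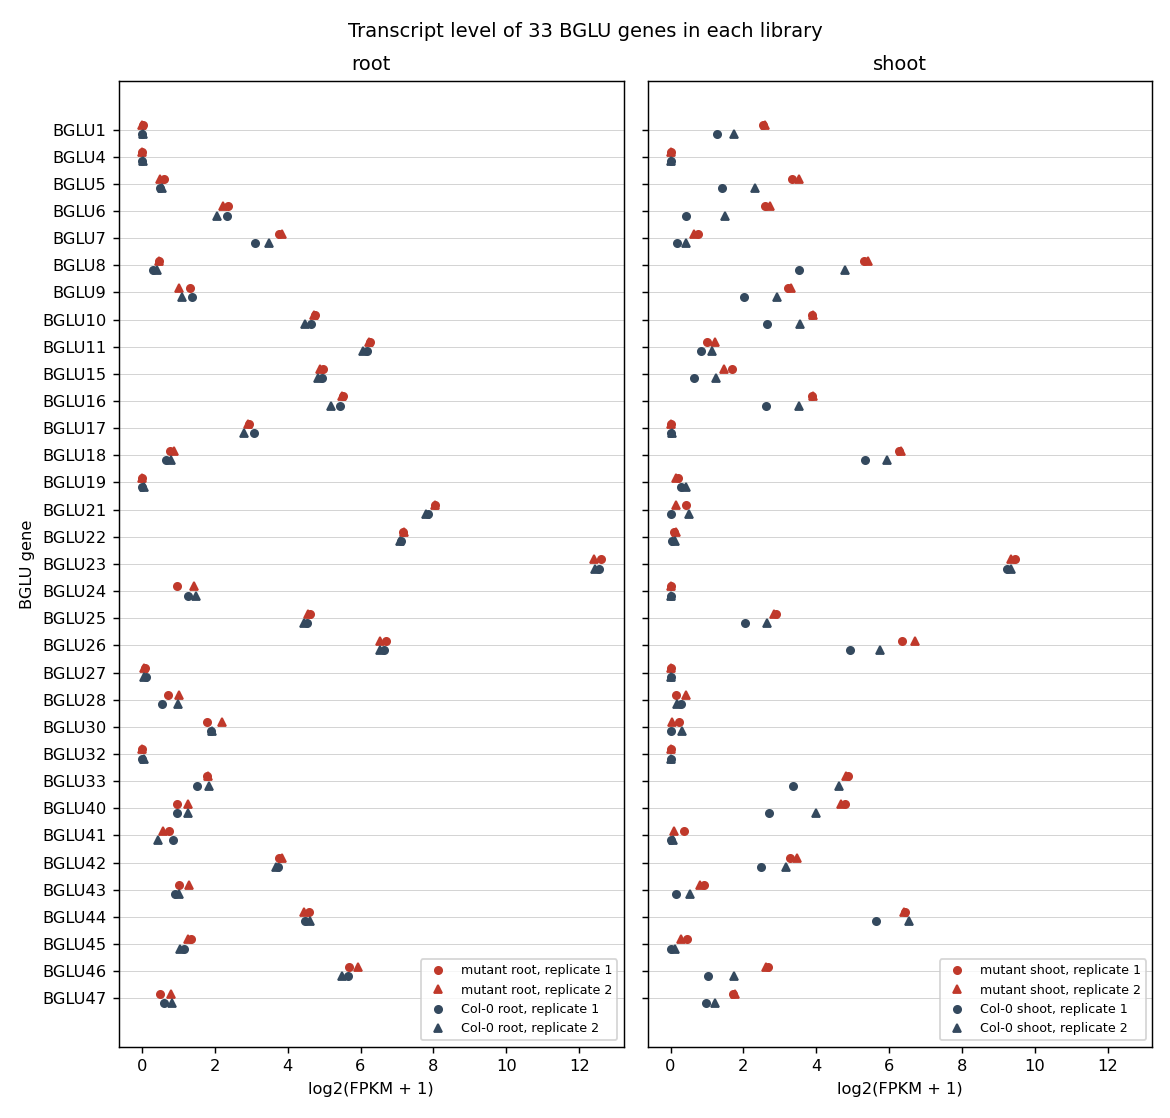
Level of each of the 33 BGLU genes in each library as log2(FPKM + 1), in root (left panel) and shoot (right panel). Red points are mutant libraries and dark points Col-0 libraries, with circles for replicate 1 and triangles for replicate 2; BGLU23 lies far right in both tissues, and Col-0 shoot replicate 1 lies left of replicate 2 for 29 of the 33 genes.

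BGLU23 led the members in both organs, and other members differed between root and shoot. In Col-0, 18 of the 27 tested members were called higher in root than in shoot and 8 lower, against a background of 72.1% of all tested genes higher and 15% lower. In the mutant, 14 were higher and 9 lower, against 58.7% and 17.7% of all tested genes. In either direction that is 23 members in the mutant and 26 in Col-0, against 76.4% and 87.2% of all tested genes. The libraries of root lay above those of shoot without overlap for 16 tested members in the mutant and 18 in Col-0, against 72.6% and 75.7% of all tested genes, and below for 10 and 9, against 22.7% and 16.7%. The whole table leaned to root (median difference over all genes 0.81 in the mutant and 1.23 in Col-0), so the fit was repeated after a median-ratio rescaling over all 8 libraries, with a background of 30.8% higher and 28.3% lower in the mutant and 32.9% and 30.5% in Col-0. In both genotypes and with both scalings, 13 members were called higher in root and 8 lower, as were 26.3% and 14.4% of all tested genes. The other 6, BGLU6, BGLU10, BGLU26, BGLU42, BGLU43 and BGLU47, changed call with the genotype or the scaling. In these bulk samples, fewer cells of a type and less RNA per cell cannot be told apart.

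**Figure D2:**
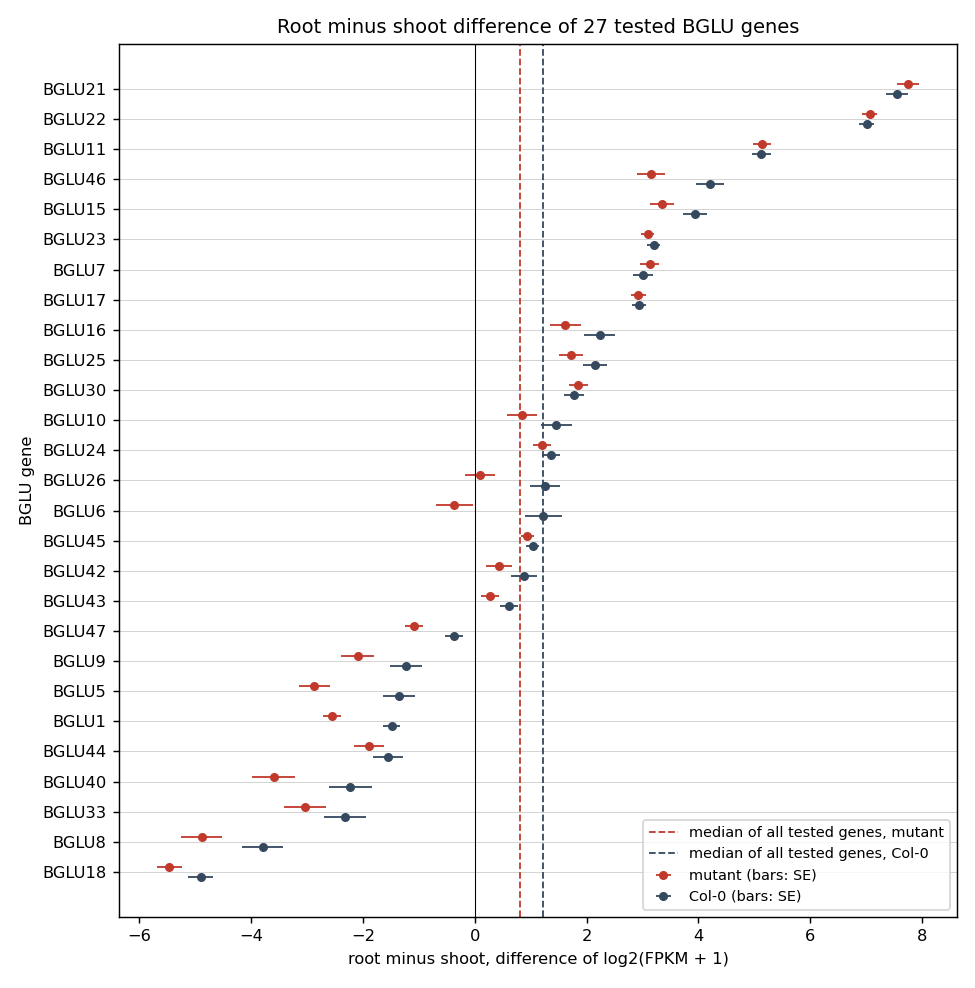
Root minus shoot difference of log2(FPKM + 1) for the 27 tested BGLU genes, in the mutant (red) and in Col-0 (dark); bars are SE and dashed lines the median of all 19985 tested genes in each genotype. BGLU21, BGLU22 and BGLU11 lie above 5 on the side of root, and BGLU18 and BGLU8 lie farthest on the side of shoot.

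The ER body members divided by organ. BGLU21 and BGLU22, adjacent genes at chr1:24699990-24703041 and chr1:24706512-24709785 whose enzymes also hydrolyse scopolin, ranked directly after BGLU23 among the members in every root library. BGLU21 had 265 and 262 FPKM in mutant roots, 228 and 219.5 FPKM in Col-0 roots, 0.340 and 0.119 FPKM in mutant shoots, and was not listed in Col-0 shoot replicate 1 and at 0.433 FPKM in replicate 2. BGLU22 had 142 and 147 FPKM in mutant roots, 138 and 134 FPKM in Col-0 roots, and at most 0.106 FPKM in any shoot library. Both were close to absent from the shoot, with the largest root minus shoot differences of the tested members: 7.75 in the mutant and 7.55 in Col-0 for BGLU21 (SE 0.20), and 7.06 and 7.01 for BGLU22 (SE 0.13), with a largest adjusted p of 2.37e-07. BGLU23 was different in that it kept a high level in the shoot, with a root level 8.57 times the shoot level in the mutant and 9.23 times in Col-0.

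BGLU18 had the opposite pattern. It encodes the beta-glucosidase of leaf ER bodies, is known to respond to wounding, and releases abscisic acid from its glucose ester. At chr1:19515143-19518411, it had 0.708 and 0.853 FPKM in mutant roots, 0.584 and 0.744 FPKM in Col-0 roots, 75.8 and 79.1 FPKM in mutant shoots and 39.0 and 60.6 FPKM in Col-0 shoots. Every shoot library was above every root library, by 99.2 times in the means of the mutant and 75.0 times in those of Col-0 (root minus shoot -5.46 in the mutant and -4.90 in Col-0, SE 0.22, adjusted p = 1.08e-06 and 1.71e-06 in limma). Of the other members numbered 18 to 25, BGLU25, a member with a merged locus, had 23.4 and 22.6 FPKM in mutant roots, 22.3 and 20.9 FPKM in Col-0 roots, 6.45 and 6.16 FPKM in mutant shoots and 3.09 and 5.26 FPKM in Col-0 shoots. BGLU24 was listed in root only, at 0.968 to 1.79 FPKM, and BGLU19 stayed under 0.34 FPKM.

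Among members that act on hormone and defence glucosides, BGLU33 was a shoot gene and BGLU26 was present in both organs. BGLU33, a vacuolar enzyme that releases abscisic acid from its glucose ester, had 2.48 and 2.51 FPKM in mutant roots, 1.85 and 2.57 FPKM in Col-0 roots, 28.01 and 27.3 FPKM in mutant shoots and 9.34 and 23.7 FPKM in Col-0 shoots. All its shoot values lay above all its root values (root minus shoot -3.04 in the mutant and -2.33 in Col-0, SE 0.38, adjusted p = 0.000284 and 0.000924 in limma). BGLU26, better known as PEN2, cleaves indole glucosinolates in defence against fungi. It had 104 and 92.0 FPKM in mutant roots, 99.1 and 91.9 FPKM in Col-0 roots, 80.7 and 104 FPKM in mutant shoots and 29.4 and 52.5 FPKM in Col-0 shoots. Root and shoot overlapped in the mutant, and root was higher in Col-0 (difference 1.26, SE 0.27, adjusted p = 0.00342); after rescaling over all libraries the Col-0 difference was -0.12. The pair known for glucosinolate breakdown under sulfur deficiency was low: BGLU30 (DIN2, dark-inducible) reached 3.59 FPKM in root and 0.238 FPKM in shoot, and BGLU28 reached 1.01 FPKM in any library.

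Members known to act on phenolic glucosides varied in organ and level. BGLU46, which acts on the glucosides of lignin precursors, had 50.2 and 60.6 FPKM in mutant roots, 49.7 and 44.3 FPKM in Col-0 roots, 5.43 and 5.17 FPKM in mutant shoots and 1.02 and 2.32 FPKM in Col-0 shoots. Its root minus shoot difference was 3.16 in the mutant and 4.21 in Col-0 (SE 0.25, adjusted p = 2.72e-05 and 5.95e-06 in limma). BGLU45, a neighbour of the same known activity, reached only 1.55 FPKM, also in root, and BGLU47 reached 2.41 FPKM, in shoot. BGLU15, which removes glucose from flavonol bisglycosides, had 30.1 and 28.9 FPKM in mutant roots, 29.5 and 27.3 FPKM in Col-0 roots, 2.24 and 1.76 FPKM in mutant shoots and 0.552 and 1.36 FPKM in Col-0 shoots. BGLU42, a gene of iron deficiency and induced systemic resistance that takes part in scopoletin release, differed little between organs. It had 12.5 and 13.4 FPKM in mutant roots, 12.3 and 11.8 FPKM in Col-0 roots, 8.64 and 10.1 FPKM in mutant shoots and 4.62 and 7.97 FPKM in Col-0 shoots. The difference was called in Col-0 (0.88, SE 0.23, adjusted p = 0.00965) and not in the mutant (0.43, adjusted p = 0.131), and became -0.37 in both after rescaling over all libraries.

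For 4 more members above 5 FPKM no role is stated. BGLU11 had 75.6 and 74.2 FPKM in mutant roots, 70.9 and 65.6 FPKM in Col-0 roots, 1.02 and 1.31 FPKM in mutant shoots and 0.795 and 1.18 FPKM in Col-0 shoots. BGLU16 had 44.8 and 44.4 FPKM in mutant roots, 42.0 and 35.6 FPKM in Col-0 roots, 13.8 and 14.0 FPKM in mutant shoots and 5.17 and 10.5 FPKM in Col-0 shoots. Both were higher in every root library than in any shoot library, far more so for BGLU11 (64.4 times in the mutant and 69.1 times in Col-0) than for BGLU16 (3.21 times and 4.95 times). BGLU17 had 6.75 and 6.54 FPKM in mutant roots, 7.51 and 6.03 FPKM in Col-0 roots and at most 0.0206 FPKM in a shoot library. BGLU40 had 0.972 and 1.41 FPKM in mutant roots, 0.966 and 1.41 FPKM in Col-0 roots, 26.4 and 24.4 FPKM in mutant shoots and 5.56 and 14.7 FPKM in Col-0 shoots. BGLU17 was thus a root gene and BGLU40 a shoot gene in both genotypes, at root minus shoot differences of 2.92 in the mutant and 2.94 in Col-0 (SE 0.13, adjusted p = 1.44e-06 and 1.38e-06 in limma) and of -3.60 and -2.22 (SE 0.38, adjusted p = 0.000135 and 0.00129).

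Some neighbouring genes differed in organ. Of the members, 19 lay in 11 pairs less than 10000 bases apart with no other listed gene between them, and in 4 pairs the 2 neighbours went opposite ways in Col-0, with libraries of root and shoot that did not overlap. Of all listed genes that follow each other within that distance, 19.5% of the pairs did the same. BGLU6, BGLU10 and BGLU43 lost their Col-0 root call after rescaling over all libraries, so only BGLU7 and BGLU8 kept opposite calls in Col-0 with both scalings. Within the pair at chr3:23211416-23217045, 482 bases apart, BGLU7 had 12.7 and 13.5 FPKM in mutant roots, 7.66 and 10.2 FPKM in Col-0 roots and at most 0.673 FPKM in shoot. Its neighbour BGLU8 had at most 0.387 FPKM in root, 38.3 and 41.4 FPKM in mutant shoots and 10.6 and 26.5 FPKM in Col-0 shoots. These were opposite patterns in both genotypes: the root minus shoot difference was 3.13 in the mutant and 3.01 in Col-0 for BGLU7 (SE 0.18, adjusted p = 4.59e-06 and 5.28e-06) and -4.88 and -3.79 for BGLU8 (SE 0.36, adjusted p = 2.19e-05 and 6.84e-05 in limma). BGLU9 and BGLU10 lie 1146 bases apart at chr4:13857749-13864500, and BGLU10 is known to add glucose to anthocyanins. BGLU9 had 1.49 and 1.04 FPKM in mutant roots, 1.59 and 1.15 FPKM in Col-0 roots, 8.35 and 8.92 FPKM in mutant shoots and 3.05 and 6.51 FPKM in Col-0 shoots, and was thus higher in shoot. BGLU10 was higher in root, with 25.8 and 25.6 FPKM in mutant roots, 23.8 and 21.4 FPKM in Col-0 roots, 13.9 and 13.9 FPKM in mutant shoots and 5.29 and 10.7 FPKM in Col-0 shoots; its call was lost in both genotypes after rescaling over all libraries.

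The third such pair was BGLU43 and BGLU44 at chr3:6187294-6194452. BGLU44, whose enzyme acts on mannooligosaccharides, had 23.1 and 20.9 FPKM in mutant roots, 21.2 and 23.4 FPKM in Col-0 roots, 84.7 and 83.6 FPKM in mutant shoots and 49.0 and 91.5 FPKM in Col-0 shoots. All shoot libraries exceeded all root libraries (root minus shoot -1.89 in the mutant and -1.55 in Col-0, SE 0.27, adjusted p = 0.000551 and 0.00126 in limma), while BGLU43 stayed under 1.44 FPKM everywhere. The fourth pair, BGLU5 and BGLU6 at chr1:22218788-22224257, lay closest, 267 bases apart. BGLU5 had 0.528 and 0.413 FPKM in mutant roots, 0.403 and 0.461 FPKM in Col-0 roots, 9.06 and 10.4 FPKM in mutant shoots and 1.66 and 4.03 FPKM in Col-0 shoots. BGLU6, which adds a sugar to flavonol glycosides, had 4.17 and 3.71 FPKM in mutant roots, 4.04 and 3.18 FPKM in Col-0 roots, 5.08 and 5.61 FPKM in mutant shoots and 0.348 and 1.84 FPKM in Col-0 shoots. BGLU5 was a shoot gene in both genotypes, whereas BGLU6 was higher in root in Col-0 (1.23, SE 0.33, adjusted p = 0.0098) and not called in the mutant (-0.36, adjusted p = 0.338). After rescaling over all libraries BGLU6 was called lower in root in the mutant (-1.05, adjusted p = 0.0277) and not called in Col-0 (0.42, adjusted p = 0.299). Neighbours can share similar sequence, and how reads that match more than 1 of them were counted is not given in the sources used here.

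**Figure D3:**
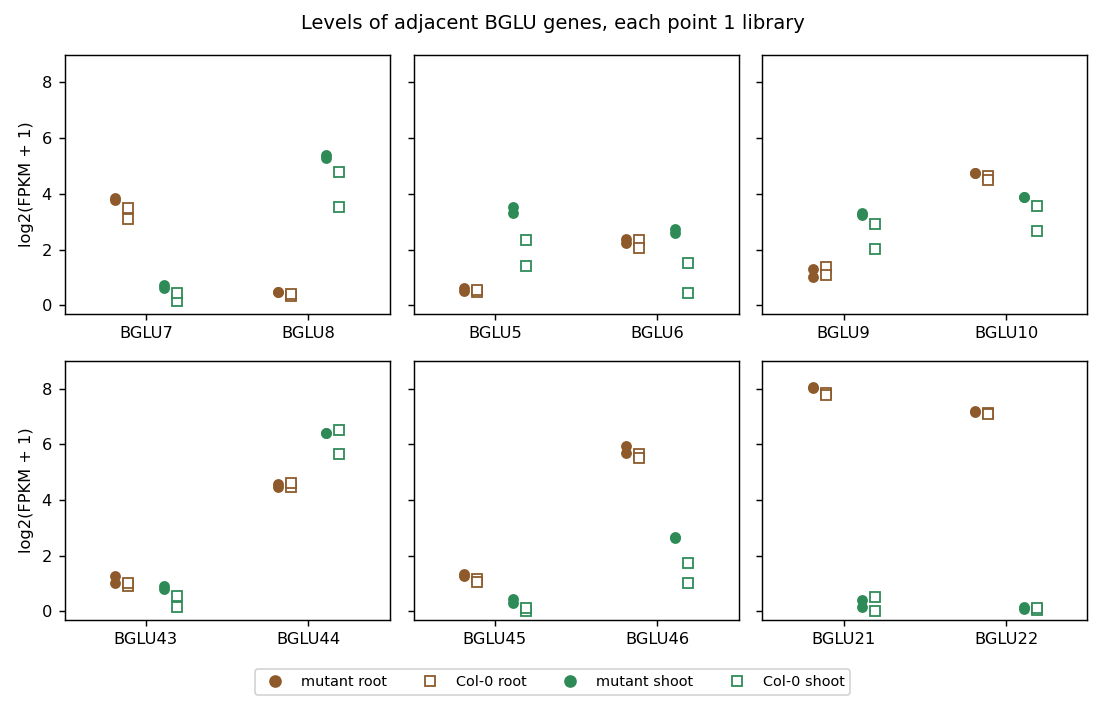
Level as log2(FPKM + 1) of 6 pairs of adjacent BGLU genes, each point 1 library; brown is root, green is shoot, filled circles are mutant and open squares Col-0. In the pairs BGLU7 and BGLU8, BGLU5 and BGLU6, BGLU9 and BGLU10, and BGLU43 and BGLU44 the order of root and shoot in Col-0 turns round between the neighbours, and in BGLU45 and BGLU46 and in BGLU21 and BGLU22 root is higher for both.

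In roots, the mutant and Col-0 did not differ in any member by the test. In limma 0 of the 27 tested members were called, against 0.01% of all tested genes (2 genes). An unadjusted p under 0.05 was found for 1 of the 27, against 2.57% of all tested genes. The median change of the tested members was 0.09, with 21 of 27 positive, against a median of -0.005 and 47.9% positive over all tested genes. In 12 of the 27 tested members both mutant roots lay above both Col-0 roots and in 0 both lay below, against 20.5% and 22.9% of all tested genes. Longer genes had larger changes in root too (Spearman's rho 0.401 across tested genes), and with the length trend removed the members' median was 0.04 with 19 of 27 positive, against 0.001 over all genes. BGLU7 had the largest change, with the mutant roots above both Col-0 roots (values above; change 0.51, SE 0.18, unadjusted p = 0.0225, adjusted p = 1). BGLU21 followed at 0.23 (SE 0.20) and BGLU46 at 0.23 (SE 0.25), again with both mutant roots above both Col-0 roots. The changes of BGLU16 (0.20, SE 0.28), BGLU10 (0.18, SE 0.27), BGLU11 (0.13, SE 0.16) and BGLU22 (0.09, SE 0.13) were smaller than their errors. BGLU23 was at 0.005 (SE 0.12), and each of these had an adjusted p of 1. The errors come from 1 model of all 4 groups, so the spread of the shoot libraries enters them. With the roots fitted alone, 0 of the 27 were called in limma (lowest adjusted p = 0.287), against 0.04% of all tested genes.

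In shoots, BGLU1 was higher in the mutant, the 1 member that passed the test, and most other members lay above Col-0 without passing. BGLU1 (chr1:17116044-17119174) had 4.85 and 5.02 FPKM in mutant shoots, against 1.42 and 2.33 FPKM in Col-0 shoots, and at most 0.0284 FPKM in any root library. Both mutant shoots lay above both Col-0 shoots, with a change of 1.06 (SE 0.16, adjusted p = 0.0479 in limma). The background was 1.02% of all tested genes called, 0.961% higher and 0.06% lower, against 1 of 27 members higher and 0 lower. At an unadjusted p under 0.05 in limma were 16 of the 27 members, against 38.7% of all tested genes. BGLU1 stayed past the threshold when either Col-0 shoot library was left out and missed it when any of the other 6 libraries was, at an adjusted p of 0.153 to 0.344. Its change was 0.84 without Col-0 shoot replicate 1 (adjusted p = 0.005) and 0.72 after median-ratio rescaling within the tissue (adjusted p = 0.0706).

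The whole shoot table leaned to the mutant, and so did the family. Among the tested members the median change was 0.65 and 24 of 27 were positive, against a median of 0.31 and 75.6% positive over all tested genes. In 19 of the 27 tested members both mutant shoots lay above both Col-0 shoots, against 56.8% of all tested genes. In 0 of them both lay below, against 9.48%. With the members not tested, the counts were 20 above and 1 below (BGLU19) of 33. After median-ratio rescaling within the tissue, the members' median change was 0.37 with 20 of 27 positive, against 0 over all genes. Longer genes had larger changes in these shoots: across tested genes, which are not independent replicates, Spearman's rho between the length of the locus and the change was 0.528. Among the 27 tested members it was -0.236. The median locus of the members was 3190 bases long and that of the tested genes 2403 bases, and the 7870 tested genes within the members' range of lengths had a median change of 0.51. With a length trend removed from each library, the members' median was 0.08 with 14 of 27 positive, against -0.03 over all genes. The part of library scale and gene length in the other changes was not tested beyond these values.

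**Figure D4:**
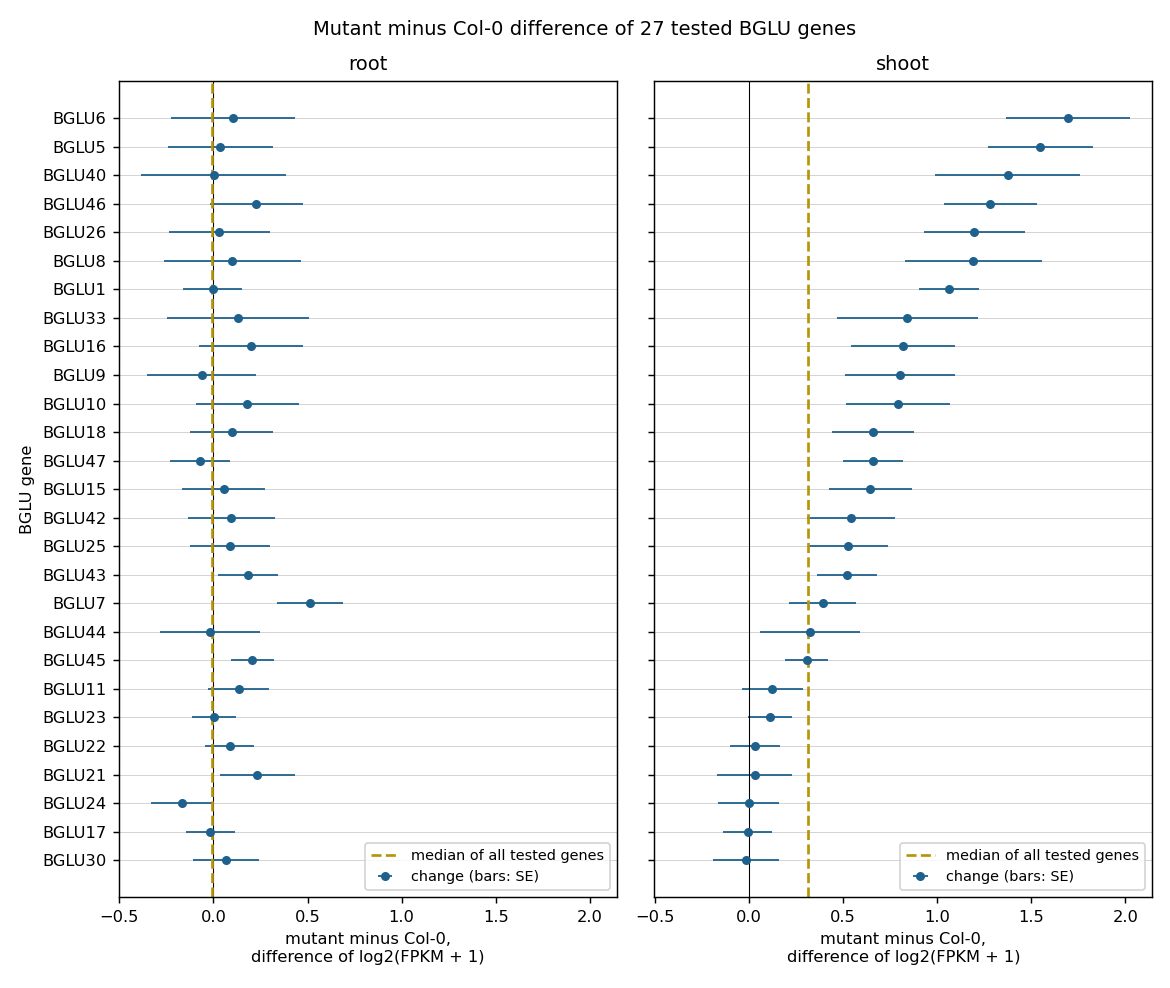
Mutant minus Col-0 difference of log2(FPKM + 1) for the 27 tested BGLU genes in root (left) and shoot (right), ordered by the shoot value; bars are SE and the dashed line is the median of all tested genes. Root changes lie near 0 except for BGLU7, and in shoot 24 of the 27 lie above 0, with the all-gene median at 0.31.

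A group of 6 members had shoot changes above that of BGLU1 but larger errors, and missed the threshold. BGLU6, at the values given above, differed by 1.70 (SE 0.33, adjusted p = 0.0575), and BGLU5 by 1.55 (SE 0.28, adjusted p = 0.053). BGLU40 differed by 1.38 (SE 0.38, adjusted p = 0.0809) and BGLU46 by 1.28 (SE 0.25, adjusted p = 0.0563). PEN2, the gene named BGLU26 in the tables, differed by 1.20 (SE 0.27, adjusted p = 0.0662) and BGLU8 by 1.19 (SE 0.36, adjusted p = 0.0868). For all 6, both mutant shoots were above both Col-0 shoots, and Col-0 shoot replicate 1 was the lowest of the 4. Without that library the changes were 1.16 for BGLU6, 1.09 for BGLU5, 0.75 for BGLU40, 0.93 for BGLU46, 0.79 for BGLU26 and 0.57 for BGLU8. All 6 then passed the threshold, with adjusted p-values of 0.00272 to 0.0153, among 9 members called, but so did 26.1% of all tested genes. Without Col-0 shoot replicate 2 instead, 20 members were called, against 66.1% of all tested genes. With Col-0 shoot replicate 1 left out and the others rescaled within the tissue, BGLU1 (0.65, adjusted p = 0.0187), BGLU5 (0.89, adjusted p = 0.00836), BGLU6 (0.98, adjusted p = 0.00726), BGLU26 (0.55, adjusted p = 0.0379) and BGLU46 (0.74, adjusted p = 0.00957) were called higher and BGLU44 (-0.36, adjusted p = 0.0448) lower, against 13.5% of all tested genes called. With the length trend removed, BGLU1, BGLU5, BGLU6 and BGLU46 were called, at changes of 0.53, 1.11, 1.27 and 0.72, against 4.91% of all tested genes. In each fit without a Col-0 shoot library, the lone Col-0 shoot is assumed to vary like the other groups.

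**Figure D5:**
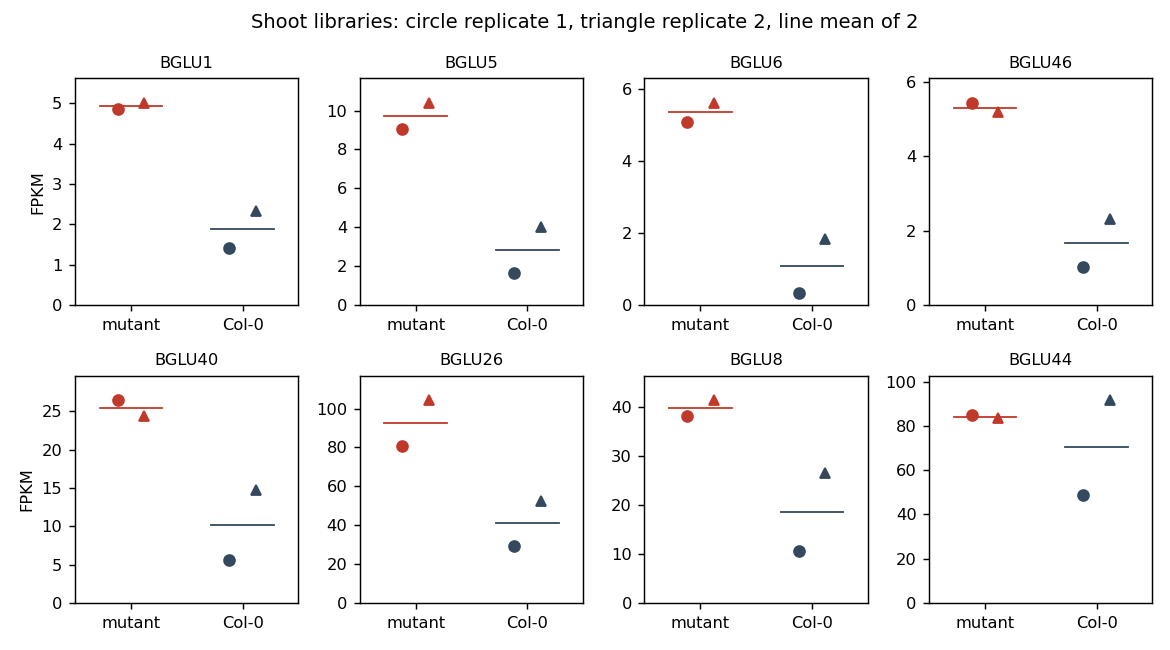
FPKM in the 4 shoot libraries for 8 BGLU genes, mutant left of Col-0, with circles for replicate 1, triangles for replicate 2 and a line at the mean of 2. Both mutant libraries lie above both Col-0 libraries for each gene except BGLU44, and Col-0 replicate 1 is the lowest library in each panel.

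The ER body glucosidase genes did not pass the test in the shoot. BGLU18 differed by 0.66 (SE 0.22, adjusted p = 0.0948) and by 0.35 without Col-0 shoot replicate 1 (adjusted p = 0.0577). BGLU23, the most abundant, was at 0.12 (SE 0.12, adjusted p = 0.491), with overlapping libraries, and at -0.36 after rescaling within the tissue. Among the other members with larger levels, BGLU33 was at 0.84 (SE 0.38), BGLU16 at 0.82 (SE 0.28), BGLU9 at 0.80 (SE 0.29), BGLU10 at 0.79 (SE 0.27) and BGLU15 at 0.65 (SE 0.22), with adjusted p-values of 0.0965 to 0.144. With the deviating Col-0 library left out and the others rescaled, these 5 members lay between -0.02 and 0.20 and none was called. BGLU44 was at 0.33 (SE 0.27, adjusted p = 0.387), with 1 Col-0 library below and 1 above both mutant libraries.

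The test of whether the genotype change differed between root and shoot called 0 members and 0 of all tested genes (0% called). At an unadjusted p under 0.05 in limma were 7 of the 27 tested members, against 15.5% of all tested genes (3094 genes). The root change minus the shoot change was -1.59 for BGLU6 (SE 0.46, adjusted p = 0.283), -1.51 for BGLU5 (SE 0.39, adjusted p = 0.269), -1.37 for BGLU40 (SE 0.54, adjusted p = 0.316) and -1.17 for BGLU26 (SE 0.38, adjusted p = 0.288). It was -1.07 for BGLU1 (SE 0.22, adjusted p = 0.25) and -1.06 for BGLU46 (SE 0.35, adjusted p = 0.291). Without Col-0 shoot replicate 1, 5 members were called (BGLU1, BGLU5, BGLU6, BGLU26 and BGLU46), against 10.4% of all tested genes, and without replicate 2, 17 members were, against 57.8%. The difference between a call in shoot and none in root is thus not shown for BGLU1 by the test over all libraries.

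Genes known to work with these enzymes were read from lists. The lists were chosen with earlier results of these data known, so their counts describe and support nothing by themselves. Of 15 tested genes of ER bodies and of the complex that PYK10 forms in broken cells, 2 were called higher in mutant shoots and 0 lower, with a median of 0.57 and 11 positive. Over all tested genes 0.961% were called higher and 0.06% lower there, with a median of 0.31. NAI1, the transcription factor needed for ER bodies, had 37.2 and 36.4 FPKM in mutant shoots, against 14.7 and 19.99 FPKM in Col-0 shoots (change 1.06, SE 0.16, adjusted p = 0.0479). JAL23, a jacalin-related lectin gene, had 1.80 and 2.16 FPKM in mutant shoots, against 0.633 and 0.870 FPKM in Col-0 shoots (0.77, SE 0.11, adjusted p = 0.0479). NAI2, which shapes ER bodies, had 46.3 and 46.9 FPKM in mutant shoots, against 8.74 and 24.6 FPKM in Col-0 shoots (1.59, SE 0.39, adjusted p = 0.0724), and TSA1, its relative in shoots, differed by 1.53 (SE 0.32, adjusted p = 0.0621). After rescaling within the tissue neither NAI1 (0.60) nor JAL23 (0.51) was called (adjusted p = 0.0818 each). Both calls were also lost with the replicate block, without the filter and with pseudocounts of 0.1 and 0.5. The same held with the tissues fitted apart, without a mean trend and after rescaling over all libraries. Both also missed the threshold when any library other than a Col-0 shoot was left out. JAL23 further lost its call with quantile normalization and with the length trend removed. NAI2 and TSA1 were chosen for mention after their values were seen. All 4 genes lay above both Col-0 shoots in both mutant shoots. In root, 0 of the 15 were called, against 0.01% of all tested genes. Their median was 0.10 and their range -0.07 to 0.23, against a median of -0.005 over all tested genes.

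The wound and jasmonate list, read because BGLU18 responds to wounding, had 6 of 9 tested genes called higher in mutant shoots and 0 lower, with a median of 1.74, against 0.961% and 0.06% of all tested genes and their median of 0.31. This list too was chosen with earlier results of these data known, so its count cannot be weighed against that share. JAZ9 (TIFY7 in the tables), a jasmonate repressor gene, had 319 and 365 FPKM in mutant shoots, against 64.2 and 112 FPKM in Col-0 shoots (change 2.00, SE 0.26, adjusted p = 0.046). JAZ10 (TIFY9) had 39.8 and 45.8 FPKM in mutant shoots, against 8.83 and 11.4 FPKM in Col-0 shoots (1.99, SE 0.19, adjusted p = 0.0387). JAZ5 (TIFY11A) rose by 1.90 (SE 0.24, adjusted p = 0.0452), and OPR3, an enzyme of jasmonate synthesis, had 241 and 256 FPKM in mutant shoots, against 56.2 and 85.0 FPKM in Col-0 shoots (1.83, SE 0.19, adjusted p = 0.0447). All these mutant values lay above all Col-0 values. After rescaling within the tissue JAZ9, JAZ10 and OPR3 kept their calls, at 1.53, 1.54 and 1.36, while JAZ5 (adjusted p = 0.0645), VSP1 (0.0707) and JAZ1 (0.0886) lost theirs. All 6 lost their calls in limma with the replicate block (adjusted p = 0.0742 to 0.076), without the filter and with a pseudocount of 0.1. The same held with the tissues fitted apart (adjusted p = 0.333), and without a mean trend JAZ10 alone kept its call. They also missed the threshold when any library other than a Col-0 shoot was left out, as BGLU1 did. In root 0 of the 9 were called, against 0.01% of all tested genes. Their median there was 0.01, against -0.005 over all tested genes.

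The other family 1 glycosidases carry the names TGG or SFR2 in the deposited data, though RefSeq gives TGG4 and TGG5 the symbols BGLU34 and BGLU35. It also numbers TGG2, TGG1 and TGG3 in the BGLU series, as 37, 38 and 39. Of the 5 tested genes, 0 were called in root and in shoot, against 0.01% and 1.02% of all tested genes. TGG4 and TGG5, root myrosinases that cleave glucosinolates, nevertheless had the 2 largest root changes of the listed genes. TGG4 had 79.4 and 78.3 FPKM in mutant roots, against 34.8 and 38.6 FPKM in Col-0 roots (change 1.08, SE 0.15, unadjusted p = 0.000154, adjusted p = 0.327). TGG5 had 63.4 and 61.5 FPKM in mutant roots, against 30.8 and 32.01 FPKM in Col-0 roots (0.97, SE 0.13, unadjusted p = 0.000164, adjusted p = 0.327). In both, the groups were far apart and the libraries of a group close together; with the roots fitted alone both passed the threshold (adjusted p = 0.00757). TGG1, the main leaf myrosinase, had 1093 and 1171 FPKM in mutant shoots, against 409 and 882 FPKM in Col-0 shoots (0.91, SE 0.33, adjusted p = 0.103). Its level was above that of BGLU23 in every shoot library except Col-0 shoot replicate 1.

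In the remaining lists 0 genes were called by genotype, against 0.01% of all tested genes in root and 1.02% in shoot. The medians below stand against -0.005 in root and 0.31 in shoot over all tested genes. Of 12 transferases that form glucosides, the medians were -0.02 in root and -0.06 in shoot, and the largest shoot changes were those of UGT73B3 (0.56, SE 0.22, adjusted p = 0.118) and UGT72E1, which glucosylates lignin precursors (-0.55, SE 0.16, adjusted p = 0.0817). Of 8 tested coumarin and iron genes, CYP82C4, which hydroxylates a coumarin, had 7.21 and 6.92 FPKM in mutant roots, against 4.39 and 3.96 FPKM in Col-0 roots (0.64, SE 0.11, unadjusted p = 0.000674, adjusted p = 0.682), and is not listed in shoot. The medians of this list were 0.12 in root and 0.06 in shoot. Of 11 sulfur deficiency genes, the medians were -0.01 in root and 0.21 in shoot, with SHM7 highest in shoot at 0.95 (SE 0.29, adjusted p = 0.0878). Of 5 tested dark-induced genes, read because BGLU30 is one, the medians were -0.08 in root and 0.66 in shoot, led by ASN1 (1.15, SE 0.31, adjusted p = 0.0777) and DIN10 (1.03, SE 0.31, adjusted p = 0.0853).

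The 6 members left out of the test were BGLU4, BGLU19, BGLU27, BGLU28, BGLU32 and BGLU41. Their group means were all under 1 FPKM, and BGLU28 (at most 1.01 FPKM) and BGLU41 (at most 0.806 FPKM), both higher in root, were the highest of them. Of the 33 members, 23 were listed in all 8 libraries and 10 in some. BGLU4 and BGLU32 were each listed in 2 libraries or fewer, at under 0.04 FPKM. Loci merged with a neighbour were given for 5 members (BGLU19, BGLU23, BGLU25, BGLU41 and BGLU47), so reads of the overlapping gene may bear on their levels.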

How the data were processed

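Each of the 8 tables the authors deposited holds FPKM with a gene name and locus, and lists only genes above 0. The genome build is TAIR10, per the submitters' processing notes; per the labels' protocols, RNA was extracted with TRIzol and sequenced on an Illumina HiSeq. Neither the aligner nor the quantifier, strand setting or read number is given in the sources used here. Starts in the tables count from 0, and 1 was added. No count model was run, since the values are not counts.

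Genes with a mean of at least 1 FPKM over the 4 libraries of root or of shoot were fitted as log2(FPKM + 1) in limma 3.58.1 (R 4.3.3), as 1 model of 4 groups with trended, robust moderation, no further scaling, and Benjamini-Hochberg adjustment over all 19985 genes of a contrast. Fits were checked on simulated data with changes in mutant roots only. The simulated spread was capped in all libraries, roots included, and no library deviated. That check therefore bears neither on the shoot calls nor on which root changes of the members could be detected. Every member could be named; values per library were given for members with a group mean of at least 5 FPKM or a genotype call, and of a list up to 4 called genes or, with none called, up to 2 with the largest change. Members and lists were chosen with earlier results of these data known. All 33 members were found in RefSeq's gene table (TAIR10.1), which gives 3 another symbol (PYK10, PEN2 and DIN2). Alternatives were other pseudocounts, filters, scalings and moderation, separate fits, a replicate block and each library left out.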

Additional observations from a re-analysis of the deposited data

How the results depend on the processing

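In root 0 members were called under every alternative run. In shoot, the 1 called member became 0 with a pseudocount of 0.1 or 0.5, without a filter, with a filter of 5 FPKM (which removes BGLU1), with median-ratio rescaling within the tissue or over all libraries, with the tissues fitted apart, without a mean trend and with the replicate block. It became 3 with quantile normalization, 4 with the length trend removed and 6 with Col-0 shoot replicate 1 left out and the rest rescaled, and ranged from 0 to 20 with 1 library left out. All-gene shoot calls, 204 as reported, ranged from 0 to 13202 (463 with quantile normalization, 257 higher and 206 lower; 981 without the length trend, 624 higher and 357 lower), and root calls from 0 to 17. The interaction called 0 members and 0% of all tested genes in each fit that kept all 8 libraries. Members were called only in fits without a Col-0 shoot library, which leave 1 library in that group. With Col-0 shoot replicate 1 left out and the rest rescaled, the value of BGLU5 was -0.85. The summed BGLU level of mutant over Col-0 shoots, 1.27 as reported, became 0.92 and 0.887 with rescaling within the tissue and over all libraries. List genes called in root, 0 as reported, became 2 with tissues fitted apart or with Col-0 shoot replicate 1 left out and the rest rescaled, and 0 to 2 with 1 library left out; those in shoot, 8 as reported, became 0 (pseudocount 0.1, no filter, tissues apart, replicate block), 1 (no trend), 3 (pseudocount 0.5, either rescaling), 16 (left out and rescaled) and 0 to 43 with 1 library left out; in the interaction they became 7 (left out and rescaled) and 0 to 36. In shoot, the share of all tested genes called was 0.01% (pseudocount 0.1), 0.0669% (no filter), 0% (tissues apart, replicate block) and 0.04% (no trend). It was 0.195% with a pseudocount of 0.5, and 0.0851% and 0.145% with rescaling within the tissue and over all libraries. In root it was 0.04% with the tissues fitted apart. Without a Col-0 shoot library, all-gene calls also rose in root, shoot and the interaction. The list counts therefore support nothing by themselves. The cause of their shifts was not tested. Positive shoot changes of the 27 members, 24 as reported, became 20 with rescaling within the tissue, 14 without the length trend and 17 left out and rescaled. Of the changes printed above, those that turned sign were, in root, BGLU23 (-0.057 without the length trend; -0.094 to 0.104 with a library left out) and, in shoot, BGLU23 (-0.359 and -0.41 with rescaling within the tissue and over all, -0.565 without the length trend, -0.191 left out and rescaled), BGLU44 (-0.142, -0.193, -0.168 and -0.358 in the same order, and -0.119 to 0.769 with a library left out), BGLU33 (-0.018, left out and rescaled) and UGT73B3 (-0.022 without the length trend). Between root and shoot they were BGLU26 (-0.776 in the mutant and -0.124 in Col-0) and BGLU42 (-0.369 and -0.374) with rescaling over all libraries, and BGLU26 in the mutant with a library left out (-0.093 to 0.271). Same-numbered libraries shared little of their deviations (correlations of 0.043 in root and 0.118 in shoot). The labels do not say whether same-numbered libraries belong together. With the replicate block the lowest adjusted p of a member in shoot was 0.0803 in limma. With 2 libraries a group, changes near the size of their SE could not be told from 0.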
